A study of Prunus persica with 21 samples.

Results

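The 4 genes described here belong to calcium signalling in peach (Prunus persica var. Big Top) and were chosen by identifier from the 27107 genes of the count table. They were PRUPE_7G090800 (CDPK11), PRUPE_7G064300 (CDPK8), PRUPE_3G266000 (CML46) and PRUPE_4G056200 (glutamate receptor 2.7, GLR2.7). Juvenile plants raised by in vitro culture were potted and kept in a glasshouse, and their leaves were sprayed with the plant elicitor peptide PpPep1 at 100 nM or PpPep2 at 1000 nM, and leaf blades without the central vein were taken 1, 24 and 48 h later. Untreated leaves (t0) were the control, tagged as mock in the sample labels. Each of the 7 groups had 3 biological replicates, each made of several plants by the study's methods, which gave 21 libraries with 33231519 to 59317510 counts each. No library of leaves handled without peptide at 1, 24 or 48 h was analysed here, so in these libraries the peptide and the spraying or the time elapsed cannot be told apart.

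Calcium ions carry signals in plant cells: their level in the cytosol rises within moments of an elicitor being perceived, and proteins that bind calcium pass the signal on. Calcium-dependent protein kinases (CDPK) join a calcium-binding domain and a kinase in a single protein. Calmodulin-like proteins (CML) bind calcium and act through the proteins they contact. Glutamate receptor-like proteins (GLR) are channels of the plasma membrane that let cations, calcium among them, into the cell, and in Arabidopsis members of the family take part in wound signalling. Elicitor peptides of the Pep family are perceived in Arabidopsis by the PEPR receptor kinases.

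The reading of the columns decided a large share of the results. The 21 columns were compared with the mapping statistics of the study by 2 criteria. The column total had to lie within 0.95 to 0.99 of a library's pairs assigned to single genes, and as many genes had to hold 25% of the counts. Under the headings, 12 columns matched the library they were named after and 9 did not. The 9 columns were those headed PpPep1 48 h, PpPep2 1 h and PpPep2 24 h. They matched, replicate by replicate, the libraries of PpPep2 1 h, PpPep2 24 h and PpPep1 48 h in that order, and they are read so in what follows. Under this reading all 21 columns matched their library, and 18 of them matched no other library. As headed, the values given below for PpPep2 1 h would be those of PpPep1 48 h, the values for PpPep2 24 h those of PpPep2 1 h, and the values for PpPep1 48 h those of PpPep2 24 h. Results for PpPep1 1 h, PpPep1 24 h, PpPep2 48 h and t0 do not rest on this choice.

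RT-qPCR primers of the study for CDPK11, CDPK8 and GLR2.7 are shown as listed under the identifiers of these genes. They were not aligned to transcripts here. The gene called CDPK11 in one list of the study is called CDPK26 in its primer list, under the same identifier, and no primers for CML46 were given. Each primer is written 5′ to 3′.
CDPK11 forward: aagcctgtgaggagtttggc
CDPK11 reverse: ccgaccatcctggaaaaagaag
CDPK8 forward: gcaatagactaccccggcaa
CDPK8 reverse: cgcgacccagttcgtatctt
GLR2.7 forward: catcatcgaagtaggccccc
GLR2.7 reverse: ggaatgccccttgcagttct

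All 4 genes were much higher 1 h after either peptide than in untreated leaves, and by 24 h they had fallen again. Levels are CPM, counts scaled to a common library size by TMM, which do not correct for gene length, so levels were compared between libraries and not between genes. A change was called when edgeR's quasi-likelihood test gave a Benjamini-Hochberg adjusted p under 0.01 over all 18586 genes tested and the log2 fold change (log2FC) was above 1 or below -1. All 4 genes passed the filter on low counts, each also through libraries other than those of 1 h. At 1 h, 4 of 4 were called higher after PpPep1, where 5.44% of all tested genes were, and 4 of 4 after PpPep2, where 6.18% were. The median log2FC of the 4 was 4.66 for PpPep1 and 4.92 for PpPep2, beside -0.02 and -0.03 over all genes tested. The genes were chosen with these results known, so their direction is not independent evidence. CDPK11, CDPK8 and GLR2.7 were also in the RT-qPCR panel, which the study chose from the results of these libraries. Both peptides were compared with the same t0 libraries. How often groups of 3 libraries lie apart over all genes was not computed, so statements on overlap of ranges are descriptions.

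**Figure D1:**
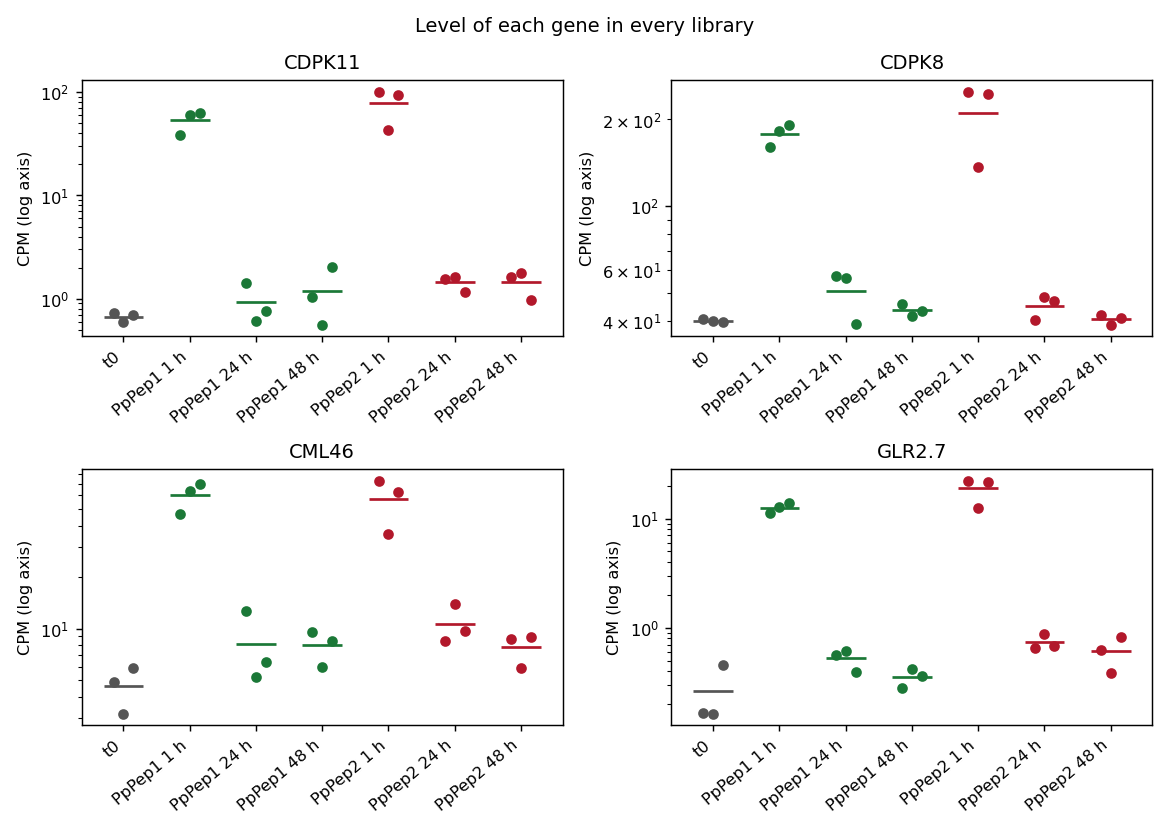
Level of each gene in CPM (log axis) in every library, by group. Points are the 3 libraries of a group and lines their mean. The 6 libraries of 1 h lie above all 15 others for each gene. The share of all tested genes that separate in this way was not computed.

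CDPK11, a calcium-dependent protein kinase, was nearly silent in untreated leaves. Its level at t0 was 0.728, 0.593 and 0.693 CPM in replicates 1 to 3, from 35, 29 and 29 counts. One hour after PpPep1 it was 38.8, 60.5 and 63.1 CPM, and 1 h after PpPep2 it was 101.4, 42.8 and 93.9 CPM. Every 1 h library was far above every t0 library, and the ranges of the peptides overlapped. The log2FC was 6.33 ± 0.44 (SE, n = 3 per group) after PpPep1 with an edgeR adjusted p of 2.514e-08. It was 6.88 ± 0.45 (SE, n = 3 per group) after PpPep2 with an edgeR adjusted p of 7.108e-09. These are 80.5-fold and 117.9-fold changes, and they ranked 41 and 34 among the log2FC of all 18586 genes. With flowcell as a term, on 14 libraries that ran on one kind of flowcell only, the PpPep2 value was 5.99 (edgeR adjusted p = 7.978e-05), and on the same libraries without the term it was 6.66.

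CDPK8, the other kinase, was well expressed before treatment and rose less in proportion. It measured 40.7, 39.9 and 39.8 CPM at t0, a narrow range. After PpPep1 it measured 160.5, 183.0 and 190.9 CPM at 1 h, and after PpPep2 249.8, 136.8 and 244.4 CPM. The groups did not overlap with t0. The log2FC was 2.15 ± 0.18 (SE, n = 3 per group, edgeR adjusted p = 3.22e-08) for PpPep1, a 4.44-fold change. It was 2.39 ± 0.18 (SE, n = 3 per group, edgeR adjusted p = 6.179e-09) for PpPep2, a 5.24-fold change.

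CML46, a probable calcium-binding protein of the calmodulin-like family, had 4.85, 3.19 and 5.88 CPM at t0. It reached 46.8, 63.8 and 69.7 CPM 1 h after PpPep1 and 73.3, 35.6 and 63.2 CPM 1 h after PpPep2. It was the gene of the 4 with the closest means under both peptides, and no 1 h library came near the t0 range. The log2FC was 3.70 ± 0.38 for PpPep1 (SE, n = 3 per group, edgeR adjusted p = 1.923e-06) and 3.63 ± 0.38 for PpPep2 (edgeR adjusted p = 1.86e-06), or 13.01-fold and 12.41-fold. In the fit with the flowcell term the PpPep2 value was 2.90 with an edgeR adjusted p of 0.02992 and was no longer called. In that fit the flowcell term rested on the 3 libraries of PpPep1 1 h, the group run on both kinds, and the t0 and PpPep2 1 h libraries were on different kinds. Over all tested genes, 556 were called higher for PpPep2 1 h against t0 with the term and 1028 on the same libraries without it.

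GLR2.7, the putative channel, had the lowest counts. At t0 it had 8, 8 and 19 counts, or 0.166, 0.164 and 0.454 CPM, so replicate 3 was above the others. It measured 11.3, 12.7 and 13.8 CPM 1 h after PpPep1 and 22.3, 12.5 and 21.8 CPM 1 h after PpPep2. All 6 were far above t0, and PpPep2 replicate 2 lay within the PpPep1 range. The log2FC was 5.62 ± 0.31 after PpPep1 (SE, n = 3 per group, edgeR adjusted p = 2.502e-10) and 6.20 ± 0.31 after PpPep2 (edgeR adjusted p = 4.096e-11), or 49.2-fold and 73.6-fold. Without t0 replicate 3 these were 6.23 and 6.81, and the fold changes were thus over 1.5 times larger. RSEM, which made the counts, shares reads between similar genes, so the values of the CDPK and GLR genes are uncertain where family members have like sequences.

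**Figure D2:**
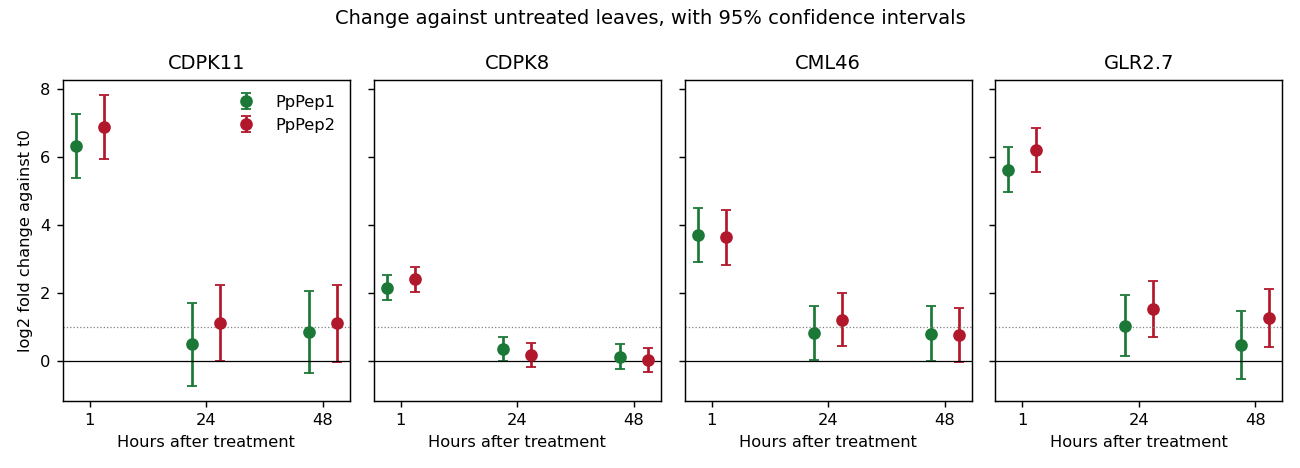
log2 fold change against untreated leaves at 1, 24 and 48 h for PpPep1 (green) and PpPep2 (red). Bars are 95% confidence intervals and the dotted line marks a log2FC of 1. At 1 h values run from 2.15 (CDPK8, PpPep1) to 6.88 (CDPK11, PpPep2), and at 24 and 48 h the highest is 1.52 (GLR2.7, PpPep2 24 h).

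Within the 1 h groups the 4 genes were low or high in the same libraries. Relative to the t0 mean, the log2 level of CDPK11 was 5.77, 6.41 and 6.47 in PpPep1 replicates 1 to 3 and 7.15, 5.91 and 7.04 in PpPep2 replicates 1 to 3. PpPep1 replicate 1 and PpPep2 replicate 2 were the lowest of their group for each of the 4 genes. These libraries were also the lowest for other responding genes. The median log2 level above t0 of the 1008 other genes called higher at 1 h after PpPep1 was 2.34, 1.77 and 2.27 in the PpPep2 libraries. The median of the 1144 other genes called higher after PpPep2 was 1.62, 1.72 and 1.88 in the PpPep1 libraries. PpPep1 replicate 1 was sequenced on the flowcells of the t0 libraries and replicates 2 and 3 on another, and its CDPK11 level of 38.8 CPM is the value at 1 h within the t0 flowcells. PpPep2 replicate 1 ran on all of these flowcells. The part of the flowcell in these differences was not tested beyond the fit with a flowcell term.

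**Figure D3:**
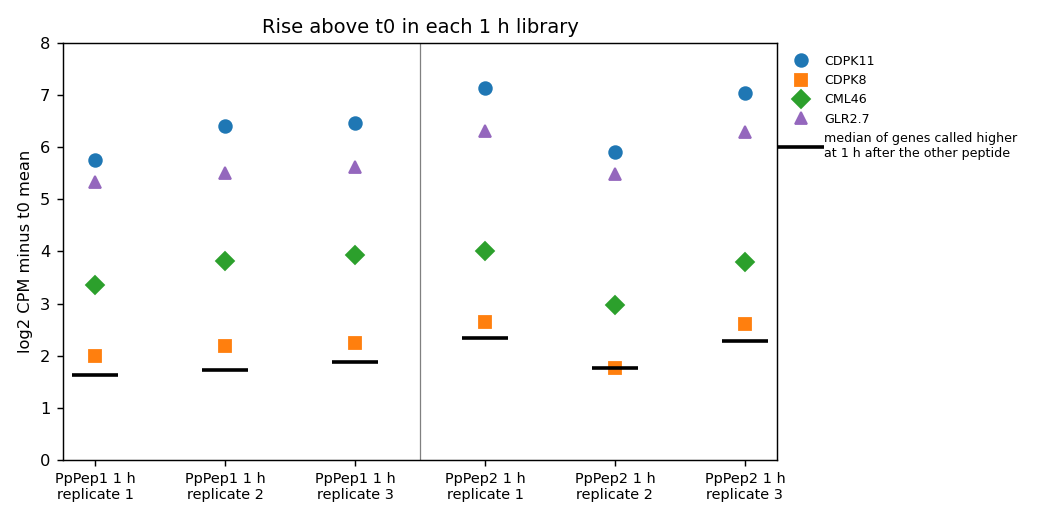
log2 CPM of each gene minus its t0 mean in the 6 libraries of 1 h. Black bars are the median of the other genes called higher at 1 h after the other peptide (1144 genes in the PpPep1 libraries, 1008 in the PpPep2 libraries). PpPep1 replicate 1 and PpPep2 replicate 2 are lowest in their group for all 4 genes and for the bar.

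From 1 to 24 h all 4 genes fell after both peptides. After PpPep1, 4 of 4 were called lower at 24 h than at 1 h, where 5.97% of all genes were, and after PpPep2 4 of 4, where 6.33% were. CDPK11 fell by 5.85 ± 0.43 on the log2 scale after PpPep1 (SE, n = 3 per group, edgeR adjusted p = 4.322e-08) and by 5.77 ± 0.40 after PpPep2 (edgeR adjusted p = 2.04e-08), where the value with the flowcell term was -4.89. GLR2.7 fell by 4.59 ± 0.29 (edgeR adjusted p = 1.126e-09) and 4.68 ± 0.27 (edgeR adjusted p = 2.784e-10) in the same order. CML46 fell by 2.89 ± 0.36 after PpPep1 (edgeR adjusted p = 1.486e-05) and fell by 2.42 ± 0.35 after PpPep2 (edgeR adjusted p = 5.6e-05). With the flowcell term the second of these was -1.69 with an edgeR adjusted p of 0.1754, so this call was lost. Over all tested genes, 498 were called lower in this comparison with the term and 1051 on the same libraries without it. CDPK8 fell by 1.81 ± 0.17 (edgeR adjusted p = 2.419e-07) and 2.22 ± 0.18 (edgeR adjusted p = 1.828e-08). These comparisons use the same 1 h libraries as those with t0.

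At 24 h none of the 4 genes was called against t0. The fitted levels of 3 of them after PpPep2, and of GLR2.7 after PpPep1, were nevertheless over 2 times those of t0. The count was 0 of 4 for PpPep1, where 0.393% of all genes were called higher, and 0 of 4 for PpPep2, where 1.02% were. The median log2FC of the 4 was 0.65 after PpPep1 and 1.16 after PpPep2, beside 0.01 and 0.00 over all genes tested. By edgeR's unadjusted p, 2 of 4 were under 0.05 in each comparison, where 29.8% of all genes were for PpPep1 and 20.3% for PpPep2. With DESeq2 the counts were 0 for PpPep1, where 0.602% of all genes were called higher, and 1 for PpPep2, where 1.17% were. After PpPep2 the fitted level was 2.87-fold that of t0 for GLR2.7, 2.31-fold for CML46, 2.15-fold for CDPK11 and 1.13-fold for CDPK8. After PpPep1 it was 2.04-fold, 1.755-fold, 1.395-fold and 1.27-fold in the same order.

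GLR2.7 and CML46 were the genes whose 24 h levels stood highest above t0 relative to their standard error. GLR2.7 measured 0.650, 0.874 and 0.676 CPM 24 h after PpPep2, above its highest t0 value of 0.454 CPM. Its log2FC was 1.52 ± 0.39 (SE, n = 3 per group) with an edgeR adjusted p of 0.02367. It was called by DESeq2 (log2FC 1.51, adjusted p = 0.001257) and by edgeR without t0 replicate 3 (log2FC 2.13, adjusted p = 0.007591). After PpPep1 GLR2.7 measured 0.562, 0.613 and 0.394 CPM, and its range overlapped with t0 through t0 replicate 3. Its log2FC there was 1.03 ± 0.43 (edgeR adjusted p = 0.114). That value was 1.64 without t0 replicate 3 and 0.79 with the flowcell term, and was called in neither fit. CML46 measured 8.47, 13.9 and 9.67 CPM 24 h after PpPep2, above the t0 libraries, with a log2FC of 1.21 ± 0.37 (edgeR adjusted p = 0.06202). After PpPep1 its level was 12.7, 5.22 and 6.36 CPM, with replicate 1 apart from the others and a log2FC of 0.81 ± 0.37 (edgeR adjusted p = 0.16). Without that replicate it was 0.33.

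The kinases differed in how their 24 h levels lay beside t0. CDPK11 measured 1.54, 1.62 and 1.17 CPM 24 h after PpPep2, above all t0 libraries, with a log2FC of 1.11 whose 95% confidence interval was -0.00 to 2.22. After PpPep1 it measured 1.43, 0.613 and 0.765 CPM and overlapped with t0, with a log2FC of 0.48 (95% confidence interval -0.75 to 1.71) that was -0.19 with the flowcell term. CDPK8 measured 57.4, 56.4 and 39.0 CPM after PpPep1 and 40.4, 48.3 and 47.1 CPM after PpPep2. Both ranges overlapped with t0, and the log2FC were 0.34 (95% confidence interval -0.02 to 0.70) and 0.17 (-0.19 to 0.53). The narrow intervals of CDPK8 exclude a 2-fold change at 24 h in this fit, and those of CDPK11 do not.

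At 48 h 0 of 4 genes were called against t0 after PpPep1, where 2.17% of all genes were called higher, and 0 of 4 after PpPep2, where 1.42% were. The median log2FC of the 4 was 0.63 after PpPep1 and 0.93 after PpPep2, beside 0.03 and 0.03 over all genes tested. By edgeR's unadjusted p, 0 and 1 of 4 were under 0.05, where 47.3% and 40% of all genes were. DESeq2 called 0 and 1, where 2.12% and 1.43% of all genes were called higher. Both 48 h groups come from a second series of 6 libraries on other flowcells, and the other 15 libraries from the first, so time and library series cannot be told apart. CDPK11 measured 1.03, 0.562 and 2.01 CPM after PpPep1, spanning the t0 range, and 1.63, 1.79 and 0.982 CPM after PpPep2, above all t0 libraries. Its log2FC were 0.84 and 1.10. CDPK8 measured 45.7, 41.5 and 43.5 CPM after PpPep1 and 41.9, 38.9 and 41.0 CPM after PpPep2, with a log2FC of 0.12 and 0.02. CML46 measured 9.56, 5.99 and 8.49 CPM after PpPep1, all above t0, and 8.67, 5.87 and 8.93 CPM after PpPep2, where replicate 2 overlapped with t0. The log2FC of CML46 were 0.80 and 0.76. GLR2.7 measured 0.278, 0.421 and 0.358 CPM after PpPep1, within the t0 range, and 0.622, 0.388 and 0.821 CPM after PpPep2. Its PpPep2 log2FC was 1.27 ± 0.41 (SE, n = 3 per group, edgeR adjusted p = 0.02449). It was called by DESeq2 (log2FC 1.25, adjusted p = 0.004659) and without t0 replicate 3 (log2FC 1.88, edgeR adjusted p = 0.005412).

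Between 24 and 48 h 0 of 4 genes were called after PpPep1, where 3.59% of all genes were called in either direction, and 0 of 4 after PpPep2, where 2.28% were. By edgeR's unadjusted p, 0 of 4 were under 0.05 in both, where 39.2% and 35.1% of all genes were. DESeq2 called 0 in both, where 4% and 2.59% of all genes were called. The log2FC ran from -0.56 (GLR2.7) to 0.36 (CDPK11) after PpPep1 and from -0.45 (CML46) to -0.01 (CDPK11) after PpPep2.

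By mean CPM, the order of the 7 groups started with the 1 h groups for every gene. PpPep2 1 h came before PpPep1 1 h for CDPK11 (79.4 ± 31.9 against 54.1 ± 13.3 CPM, SD, n = 3), CDPK8 (210.4 ± 63.7 against 178.1 ± 15.8 CPM) and GLR2.7 (18.9 ± 5.54 against 12.61 ± 1.298 CPM). For CML46 the order was the other way (57.3 ± 19.5 against 60.1 ± 11.9 CPM). The ranges of the 1 h groups overlapped for each gene. A gap followed, and t0 was last for each gene. Among the groups from 24 h to t0 every pair of neighbours in the order overlapped in range.

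The peptides were compared at the same time points, at doses that differ (1000 nM of PpPep2, 100 nM of PpPep1), so peptide and dose cannot be told apart. None of the 4 genes was called at any time. At 1 h 0 of 4 were called, where 0.0161% of all genes were, at 24 h 0 of 4 where 0.0377% were, and at 48 h 0 of 4 where 0.00538% were. By edgeR's unadjusted p, 1, 0 and 0 of 4 were under 0.05 at 1, 24 and 48 h, where 13.3%, 15.3% and 10.4% of all genes were. DESeq2 called 0 at each time, where 0.0181%, 0.329% and 0.0091% of all genes were called. At 1 h GLR2.7 was 1.496-fold higher after PpPep2 (95% confidence interval 1.10 to 2.03, edgeR adjusted p = 0.2428). CDPK11 was 1.47-fold higher (0.931 to 2.31, edgeR adjusted p = 0.4532), CDPK8 1.18-fold (0.924 to 1.51, edgeR adjusted p = 0.5629) and CML46 0.954-fold (0.590 to 1.54, edgeR adjusted p = 0.9537). The intervals of CDPK11 and GLR2.7 include a 2-fold difference and that of CDPK8 does not. At 24 h GLR2.7 had a log2FC of 0.49 (95% confidence interval -0.23 to 1.22), and 0.73 with the flowcell term (edgeR adjusted p = 0.9047). CDPK11 had 0.63 at 24 h, and 1.299 with the flowcell term (edgeR adjusted p = 0.8786). The term moved CDPK11 for PpPep1 24 h against t0 (0.48 without it, -0.19 with it) and not for PpPep2 24 h (1.11 in both). The 24 h comparison of the peptides thus also crosses kinds of flowcell, so peptide and flowcell cannot be told apart there. The term itself rested on the PpPep1 1 h libraries. The comparison at 48 h lies within the second library series, and there GLR2.7 had a log2FC of 0.80 (-0.05 to 1.64) and the others from -0.10 (CDPK8) to 0.26 (CDPK11).

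**Figure D4:**
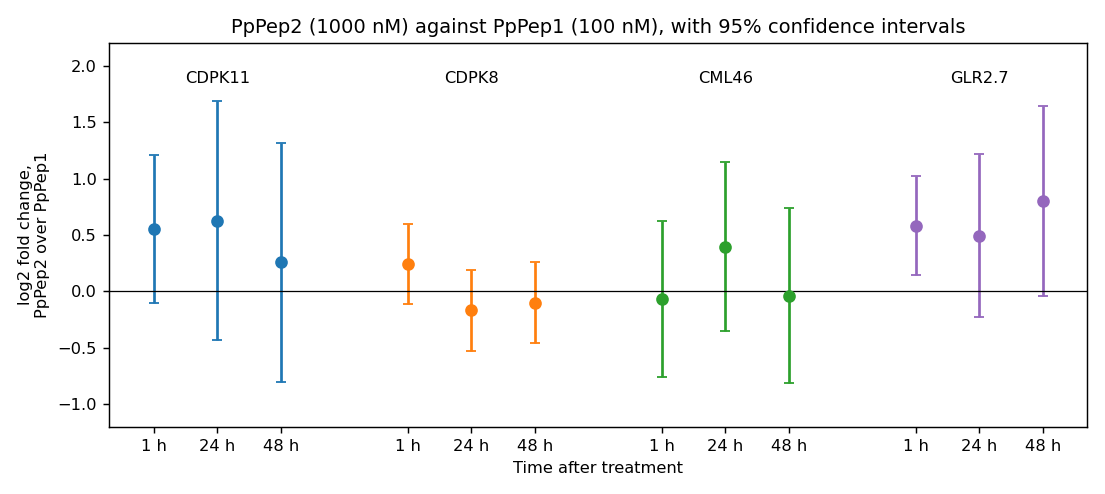
log2 fold change of PpPep2 (1000 nM) over PpPep1 (100 nM) for each gene at 1, 24 and 48 h. Bars are 95% confidence intervals. Of the 12 intervals, that of GLR2.7 at 1 h (0.14 to 1.02) does not reach 0, and its adjusted p was 0.2428.

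The other calcium-related genes were a list of 8, CML46 included, picked from the network of the study, which may hold more. The network started from neighbours of the RT-qPCR genes among known Arabidopsis links, and its identifiers and the cluster shown were then chosen partly by expression in these libraries, so the direction of its genes is not fully independent evidence. At 1 h 6 of 8 were called higher and 0 lower after PpPep1, where 5.44% of all tested genes were called higher. After PpPep2 5 of 8 were called higher and 0 lower, where 6.18% were called higher. The median log2FC of the 8 was 2.03 and 2.12, beside -0.02 and -0.03 over all genes. IQM1 (PRUPE_7G206600), an IQ domain protein, changed most, from 0.503 CPM at t0 to 32.5 CPM after PpPep1 (log2FC 6.02 ± 0.40, SE) and 39.6 CPM after PpPep2 (6.31 ± 0.40). The calmodulin-binding protein with a DUF1645 domain (PRUPE_1G441300) rose by a log2FC of 2.94 and 2.87. The calcium-dependent lipid-binding protein with a CaLB domain (PRUPE_8G131800) rose by 2.13 and 2.12, and the calcium-binding protein CML38, also named CML31 (PRUPE_5G000600), by 1.92 and 2.12. CAMBP25, calmodulin-binding protein 25 (PRUPE_6G310500), was called after PpPep1 (log2FC 1.05) and not after PpPep2 (0.80), a difference between peptides that was not called. At 24 h 0 of 8 were called against t0 after either peptide, where 0.393% (PpPep1) and 1.02% (PpPep2) of all genes were called higher. At 48 h 1 of 8 was called higher after each peptide, where 2.17% (PpPep1) and 1.42% (PpPep2) of all genes were. It was KRP1 (PRUPE_4G033300), named here after its values were seen, with a log2FC of 1.17 and 1.24. Its 1 h values of 1.03 and 1.00 had edgeR adjusted p of 0.01583 and 0.01853, so unlike the 4 genes above it was called at 48 h and not at 1 h.

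**Figure D5:**
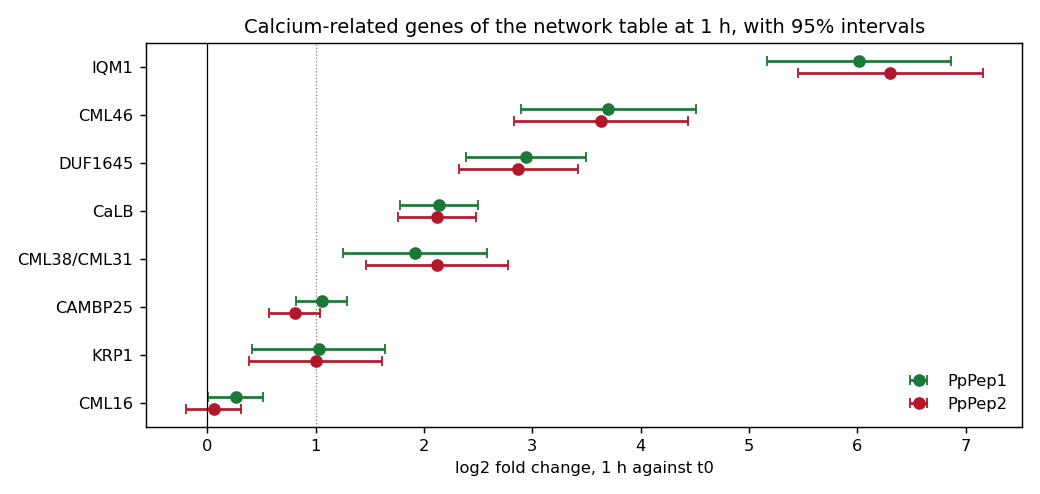
log2 fold change at 1 h against t0 for the 8 calcium-related genes picked from the study's network, after PpPep1 (green) and PpPep2 (red). Bars are 95% confidence intervals and the dotted line marks a log2FC of 1. IQM1 is highest (6.02 and 6.31) and CML16 lowest (0.26 and 0.06).

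Transcripts of the receptor PpPEPR1a (PRUPE_3G167800) and of PpFLS2 (PRUPE_3G304400), named for the Arabidopsis flagellin receptor kinase, were also read. Both were taken from the study's account of these libraries, so their direction is not independent evidence. PpPEPR1a rose at 1 h by a log2FC of 1.32 ± 0.17 (SE, n = 3 per group, edgeR adjusted p = 5.883e-06) after PpPep1 and 1.51 ± 0.17 after PpPep2 (edgeR adjusted p = 7.67e-07). PpFLS2 rose by 2.36 ± 0.27 (edgeR adjusted p = 9.12e-07) and 3.06 ± 0.26 (edgeR adjusted p = 1.399e-08). Its level was low, with 13 to 19 counts (mean 0.339 CPM) at t0 and means of 1.75 and 2.86 CPM at 1 h.

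The genes with the most similar pattern were sought by Pearson's r of log2 CPM over the 21 libraries, among 567 tested genes that the count table or the study's tables pair with a name. Several of those tables were drawn up from results of these libraries, and r over these libraries mostly reflects the contrast of 6 libraries of 1 h with 15 others, so the values are a description. For CDPK11 the closest were WRKY33 (PRUPE_6G286000, r = 0.9901), a transcription factor of defence in Arabidopsis, and a pair of receptor-like kinase genes of the Lr10 type (PRUPE_1G315900 and PRUPE_2G089000, r = 0.9898 and 0.9895). For CDPK8 they were scarecrow-like protein 21 (PRUPE_4G200200, r = 0.994), NPR2 (PRUPE_3G178800, r = 0.988) and XLG1 (PRUPE_8G110500, r = 0.985). For CML46 they were SKIP27 (PRUPE_4G036800, r = 0.988), BIR1 (PRUPE_8G186400, r = 0.979) and a G-type lectin receptor kinase gene (PRUPE_3G089700, r = 0.979). For GLR2.7 they were PTI5 (PRUPE_4G055500, r = 0.9895), WRKY33 (r = 0.988) and NPR2 (r = 0.986). Among the 4 genes r was 0.955 to 0.972, and Spearman's rho was 0.69 to 0.85. By r, they ranked from 43 (CDPK11 for CML46) to 335 (CML46 for CDPK8) among all tested genes, so many other genes were closer. Once group means were taken out, r among the 4 genes was 0.65 for CDPK11 with CML46, 0.62 for CDPK8 with CML46, 0.55 for CML46 with GLR2.7, 0.53 for CDPK8 with GLR2.7, 0.51 for CDPK11 with CDPK8 and 0.11 for CDPK11 with GLR2.7, over the same 21 libraries. With the closest named genes above it ran from 0.53 (GLR2.7 with WRKY33) to 0.94 (CML46 with SKIP27).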

How the data were processed

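RNA of 21 libraries was sequenced as stranded read pairs. The authors aligned the reads with STAR 2.5.3a to the peach NCBIv2 genome, quantified genes with RSEM 1.3.0, and deposited the counts per gene as whole numbers without normalization. How they became whole numbers is not given in the sources used here. The authors' own comparisons used DESeq2 1.20.0. From the counts, TMM scaling, filterByExpr and edgeR 4.0.16's robust quasi-likelihood test (R 4.3.3) were applied to 7 group means over all 21 libraries, for 13 comparisons. SE is the log2FC divided by the square root of F, in absolute value. log2 CPM used a prior count of 2. The 9 columns were reassigned by totals that the study's mapping statistics give, a criterion known from earlier work on these data. The genes named are the 4 genes, 8 calcium-related genes of the network table (values for at most 6, by largest change at 1 h), 2 receptors and, for each of the 4, the 3 named genes with the highest r. Members and lists were chosen with earlier results of these data known. The files used here pair 0 identifiers with the RefSeq list and name no leaf or vein marker of those sought, so the tissue was not checked and no positions or lengths were used. Alternatives were RLE scaling, DESeq2 1.42.0, no filter, a filter at 1 CPM in 3 or more libraries, a replicate block, fits of just the compared groups, calls without the log2FC limit, the columns as headed, only the 12 matching columns, a flowcell term, and each library left out. The code was tested on simulated data.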

Additional observations from a re-analysis of the deposited data

How the results depend on the processing

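The reading of the columns mattered most. Of 52 log2FC, 24 changed call, or direction where called, with the columns as headed, and 4 changed call under the other settings: CML46 for PpPep2 1 h against t0 and 24 h against 1 h with the flowcell term, and GLR2.7 for PpPep2 24 h and 48 h against t0 with DESeq2 and without t0 replicate 3. A further 10, of at most 0.48 in size and called in no such fit, changed sign under at least 1 of these settings. As headed, 4 of the 4 genes were called higher for PpPep1 48 h against t0, where 1148 of all 18586 genes were. For PpPep2 1 h against t0 0 were called, where 189 of all genes were called higher. For PpPep1 48 h against 24 h 4 were called higher, where 1334 of all genes were. For PpPep2 24 h against 1 h 0 were called, where 408 of all genes were called lower. For PpPep2 against PpPep1 4 were called lower at 1 h and 4 at 48 h, where 1030 and 1432 of all genes were. The direction then reversed for PpPep1 48 h against 24 h in CDPK8 (2.05), CML46 (2.82) and GLR2.7 (5.18 on the log2 scale), for PpPep2 against PpPep1 at 1 h in CDPK11 (-5.22), CDPK8 (-1.98) and GLR2.7 (-4.10), and at 48 h in CDPK11 (-5.78) and GLR2.7 (-4.93). DESeq2 called 1 gene, GLR2.7, for PpPep2 24 h and 1 for 48 h against t0, where 1.17% and 1.43% of all genes were called higher. With each library left out, these counts of the 4 genes ranged from 0 to 1. Over all genes, 100 to 170 were then called higher at 24 h and 180 to 266 at 48 h. The replicate block changed 0 of 52 calls. With it 4 genes were called higher at 1 h after each peptide, where 1016 (PpPep1) and 1143 (PpPep2) of all genes were. The edgeR adjusted p of the 4 genes there ran from 2.469e-10 to 2.816e-06. Same-numbered libraries' deviations correlated above 0.1 in every pair in 0 of 13 comparisons (r from -0.245 to 0.251). With 3 libraries per group this cannot show whether numbers mark pairs, and the main fit did not pair them. The fit of the flowcell libraries without the term was chosen after seeing the data and changed no call. Low counts of GLR2.7 and CDPK11 at t0 limit their fold changes.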
